A study of Mus musculus with 8 samples.

Results

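The Hsp110 and Hsp70 chaperones that work outside the endoplasmic reticulum (ER) were followed in mouse thymus as 9 named genes: Hsph1, Hspa4, Hspa4l, Hspa8, Hspa9, Hspa2, Hspa14, Hspa1a and Hspa1b. A gene was represented by a probe set that the platform annotation pairs with it and no other gene, and where there were several, as for Hspa8, the probe set was chosen by the highest mean log2 value over the 8 arrays. This gave values for 8 of the 9 genes, out of 19938 genes with a value. Hspa1b had no probe set of its own. The family was put forward with earlier results of the comparison below in view, so its values describe the members and are not independent support for any direction.

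Whole thymus lobes came from 4 C57BL/6NTac mice flown on the space shuttle mission STS-118 for 13 days, and from 4 ground-control mice of the same strain, matched for age and sex and kept on the ground in the same type of animal enclosure module. The mice were young adults of 8 weeks, the lobes were taken when the mission ended, and the interval between landing and dissection is not given in the sources used here. Each mouse gave 1 Affymetrix array, and values are log2 expression, on which a difference of 1 is a factor of 2. Of the markers of immature T cells, Rag1 averaged 12.46 ± 0.10 in spaceflight and 12.47 ± 0.16 in ground control (mean ± SD, n = 4 each), while Ptcra was dim, at 6.40 ± 0.19 in spaceflight and 6.57 ± 0.17 in ground control, near the array medians of 6.01 to 6.10. Rag1 differed least (-0.016) of the 9 thymocyte markers measured, and all 9 had a lower mean in spaceflight.

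Hsp70 proteins bind unfolded stretches of other proteins and release them in a cycle driven by ATP. J-domain proteins deliver clients and trigger ATP hydrolysis, and nucleotide exchange factors, the Hsp110 proteins among them, exchange ADP for ATP so that the client is let go. Some members are made at all times, while transcription of others rises steeply when heat shock factor 1 (HSF1) is activated by heat or other protein-damaging stress. Hsph1, Hspa1a and Hspa1b were treated as the inducible members, and Hspa8, Hspa4, Hspa4l, Hspa9, Hspa2 and Hspa14 as the constitutive ones.

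HSF1 binds heat shock elements, in which the unit GAA and its complement TTC alternate with gaps of 2 bases. RefSeq promoter windows of build GRCm38.p6, from 250 bases before to 50 bases after an annotated start, were matched by symbol for 7 members. The members without a window, all of them constitutive ones, were not searched, so the absence of a match is not known for them. A gene can have more than 1 window, as Hsph1 does, so a count of members and a share of windows are unlike units. The motif of 2 units, written GAANNTTC or TTCNNGAA and the same on both strands, was in the windows of 3 members (Hsph1, Hspa1a and Hspa1b) and in 15.1% of all 32851 windows. The motif of 3 units, GAANNTTCNNGAA or on the other strand TTCNNGAANNTTC, contains both 2-unit forms. It was in a window of 1 member, Hsph1, and in 0.603% of all windows. The Hsph1 stretches that hold these letters, the promoters of Hspa1a and Hspa1b, the pair that shares a probe set, and the Hspa4 promoter as a constitutive member without a match are printed 5′ to 3′, with the matching bases in capitals.
Hsph1, chr5:149636351-149636380, minus strand, bases -65 to -36 from an annotated start: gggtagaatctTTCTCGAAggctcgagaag
Hsph1, chr5:149636279-149636308, minus strand, bases 8 to 37 after the same start: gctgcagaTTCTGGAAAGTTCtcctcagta
Hspa1a, chr17:34972157-34972276, minus strand, bases -120 to -1: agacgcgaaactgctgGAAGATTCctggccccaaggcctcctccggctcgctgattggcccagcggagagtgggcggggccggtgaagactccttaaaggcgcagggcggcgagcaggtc
Hspa1b, chr17:34959239-34959358, minus strand, bases -120 to -1: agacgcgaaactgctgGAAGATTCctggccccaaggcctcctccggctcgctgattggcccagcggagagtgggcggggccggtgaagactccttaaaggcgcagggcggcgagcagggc
Hspa4, chr11:53300480-53300599, minus strand, bases -120 to -1: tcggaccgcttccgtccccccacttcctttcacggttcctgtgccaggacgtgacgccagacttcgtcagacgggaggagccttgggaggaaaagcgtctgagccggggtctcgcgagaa
The Hspa1a and Hspa1b stretches were identical at 119 of 120 bases, and over the 250 bases before the start at 247. These matches are letters in a window and say nothing about binding in these thymuses.

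Hsph1, the stress-inducible Hsp110 protein, fell after spaceflight, and it was the 1 of 8 measured members below an adjusted p of 0.05. All 8 had a lower mean in spaceflight, where 53.5% of all genes did, and the 7 others differed by -0.63 to -0.12. The call rate among all 19938 genes was 0.0652% for lower values. Because the family was chosen with this comparison known, nothing is read from its share.

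Hsph1 had log2 values of 7.18, 7.83, 7.75 and 7.71 in spaceflight replicates 1 to 4, against 9.76, 9.44, 9.59 and 9.27 in ground-control replicates 1 to 4. The groups were far apart, with a gap of 1.44 between the highest flown and the lowest control mouse. The difference was -1.89 ± 0.16 (SE, limma adjusted p = 0.000539), which is 3.72-fold lower, with a 95% interval of -2.24 to -1.55. Of all genes, 3 had a larger drop in mean. Hsph1 encodes the protein also called Hsp105, which acts as a nucleotide exchange factor for Hsp70 and holds unfolded proteins in solution.

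**Figure D1:**
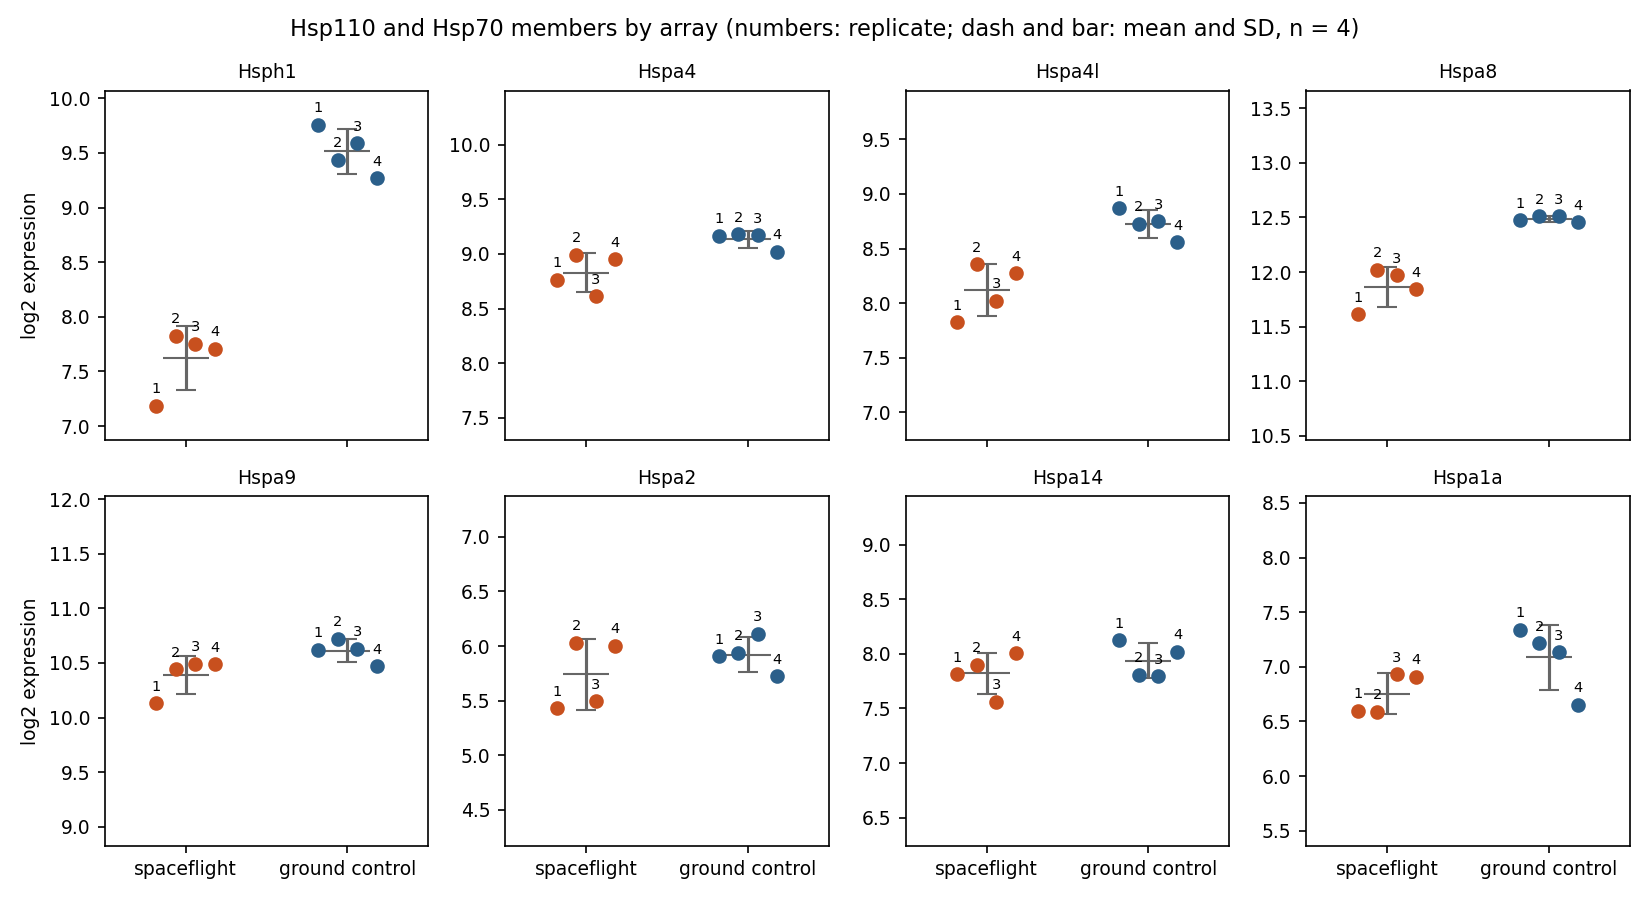
Log2 expression of the 8 measured members on each array, spaceflight left and ground control right, on axes of equal span; points are mice, numbered by replicate, and the dash with bars is the mean and SD (n = 4). Hsph1 shows a gap of 1.44 between the groups, and Hspa4, Hspa4l and Hspa8 also do not overlap, by 0.027, 0.20 and 0.44.

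The other Hsp110 genes differed less. Hspa4l, also known as Apg-1 or Osp94, had 7.82, 8.35, 8.02 and 8.27 in spaceflight, against 8.87, 8.73, 8.75 and 8.56 in ground control. Every flown mouse was below every control mouse, by at least 0.20, and the difference was -0.61 ± 0.13 (limma adjusted p = 0.160). Hspa4, known as Apg-2 and found in most tissues, had 8.76, 8.99, 8.61 and 8.95 in spaceflight, against 9.17, 9.18, 9.17 and 9.02 in ground control. Here the groups were separated by only 0.027, between spaceflight replicate 2 and ground-control replicate 4. Its difference was -0.30 ± 0.12 (limma adjusted p = 0.40). Neither passed the test over all genes, and without spaceflight replicates 1 and 3 the differences were -0.41 for Hspa4l and -0.16 for Hspa4.

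Hspa8 encodes Hsc70, the constitutive cytosolic Hsp70 that also uncoats clathrin vesicles and serves chaperone-mediated autophagy. Its chosen probe set had 11.61, 12.02, 11.97 and 11.84 in spaceflight, against 12.48, 12.51, 12.51 and 12.46 in ground control. The control mice lay within a narrow band (SD 0.027) and the flown mice were all below it and more spread out (SD 0.18). The difference was -0.63 ± 0.11 (limma adjusted p = 0.0824), which did not pass. Limma with an intensity trend and robust variances together put the adjusted p at 0.0284. That was the 1 of 12 alternatives in which Hspa8 passed, and it passed in 0 of 8 fits without 1 array. The other 2 Hspa8 probe sets, which the selection did not use, differed by -0.65 and -0.62, and in a fit of all 28943 probe sets the adjusted p of the 3 ran from 0.116 to 0.207. Probe sets of 1 gene are measured on the same RNA and are not replicates.

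Another 2 probe sets were annotated jointly to Hspa8 and to Snord14c and Snord14d, small nucleolar RNAs that guide ribosomal RNA processing and are encoded in introns of Hspa8. They cannot be assigned to the host gene or to the small RNAs. One (10584576) had 7.49, 7.96, 7.68 and 7.99 in spaceflight, against 8.83, 8.74, 8.44 and 9.03 in ground control. The flown mice were again all lower, with differences of -0.98 ± 0.16 for this probe set and -1.01 ± 0.15 for the other, which had almost the same value on every array (limma adjusted p = 0.0976 and 0.0772 over all probe sets).

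Hspa1a encodes the heat-inducible cytosolic Hsp70. Its own probe set had 6.60, 6.59, 6.93 and 6.91 in spaceflight, against 7.34, 7.22, 7.13 and 6.65 in ground control. The groups overlapped, because ground-control replicate 4 was as low as the flown mice. The difference was -0.33 ± 0.16 (limma adjusted p = 0.467). The probe set that the annotation gives to both Hspa1a and Hspa1b, a neighbouring gene whose protein is nearly the same, had 7.26, 7.89, 7.71 and 7.95 in spaceflight, against 8.32, 8.37, 8.54 and 8.14 in ground control. These values did not overlap, and the difference was -0.64 ± 0.16 (limma adjusted p = 0.330 over all probe sets). Which of the pair it reports cannot be told apart, and cross-hybridisation between such close copies leaves the Hspa1a value uncertain too.

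**Figure D2:**
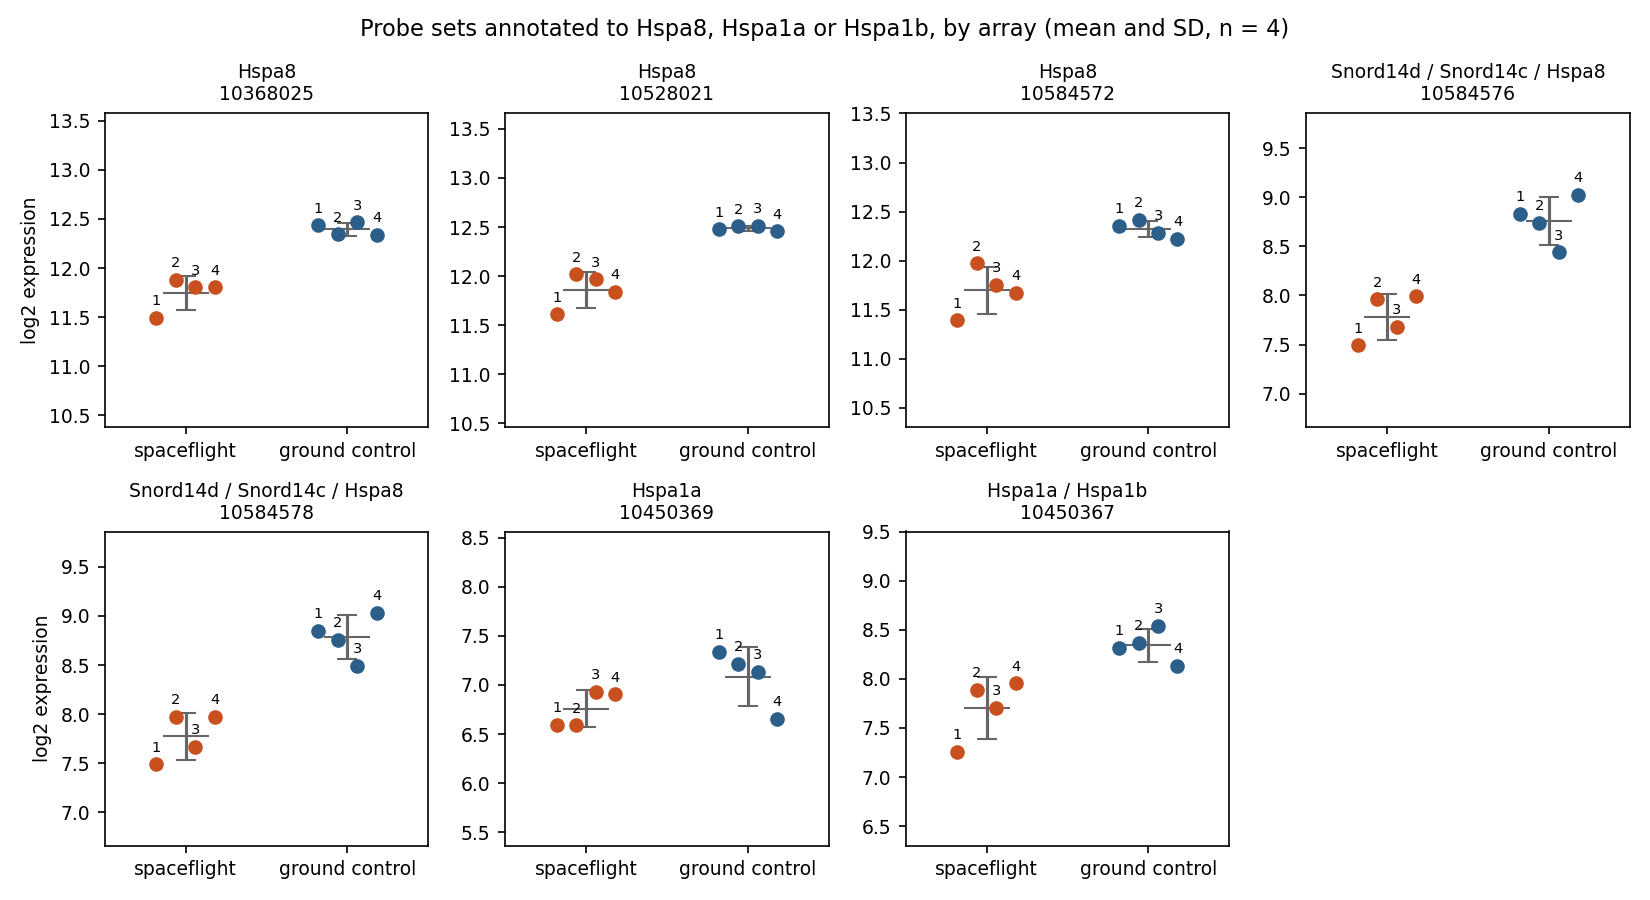
Log2 expression on each array for the 3 Hspa8 probe sets, the 2 annotated jointly to Hspa8 and 2 small nucleolar RNAs, the Hspa1a probe set and the one annotated to Hspa1a and Hspa1b, spaceflight left and ground control right (points: mice numbered by replicate; dash and bars: mean and SD, n = 4). Flown mice lie below all control mice in 6 of the 7 panels, the Hspa1a probe set being the exception. Of all genes, 4.28% were lower without overlap. Most panels are probe sets annotated to Hspa8, measured on the same RNA, and they are not replicates.

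The 3 remaining constitutive genes overlapped between groups. Hspa9, the mitochondrial Hsp70 (mortalin) that pulls proteins through the inner membrane, had 10.13, 10.44, 10.49 and 10.49 in spaceflight, against 10.62, 10.72, 10.63 and 10.47 in ground control. Spaceflight replicates 1 and 2 lay below the control range, the second of them narrowly, and the difference was -0.22 ± 0.12 (limma adjusted p = 0.490). Hspa14, whose product assists new proteins on the ribosome, ran from 7.56 to 8.01 in spaceflight and from 7.80 to 8.12 in ground control, a difference of -0.12 ± 0.13 (limma adjusted p = 0.713). Hspa2, best known for its role in male meiosis, had 5.43, 6.03, 5.49 and 6.00 in spaceflight, against 5.91, 5.94, 6.11 and 5.72 in ground control. The low flown mice were replicates 1 and 3, while 2 and 4 lay inside the control range. Its difference was -0.18 ± 0.16 (limma adjusted p = 0.637) and its group means of 5.74 in spaceflight and 5.92 in ground control lay below the array medians of 6.01 to 6.10.

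In all, 4 members (Hsph1, Hspa4, Hspa4l and Hspa8) had groups that did not overlap, all lower in spaceflight, against a background of 4.28% of all genes lower without overlap. The median difference over the 8 members was -0.32, and -0.30 over the 7 besides Hsph1, while the median of all genes was -0.018. The inducible members that could be measured, Hsph1 and Hspa1a, averaged 6.89, 7.21, 7.34 and 7.31 in spaceflight, against 8.55, 8.33, 8.36 and 7.96 in ground control, a difference of -1.11. The 6 constitutive members averaged 8.60, 8.96, 8.69 and 8.93 in spaceflight, against 9.19, 9.15, 9.16 and 9.04 in ground control, a difference of -0.34. The inducible difference was thus 0.77 further down, but Hsph1 carried it: at -0.33, Hspa1a lay within the constitutive range of -0.63 to -0.12. The split is a description and was given no test.

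**Figure D3:**
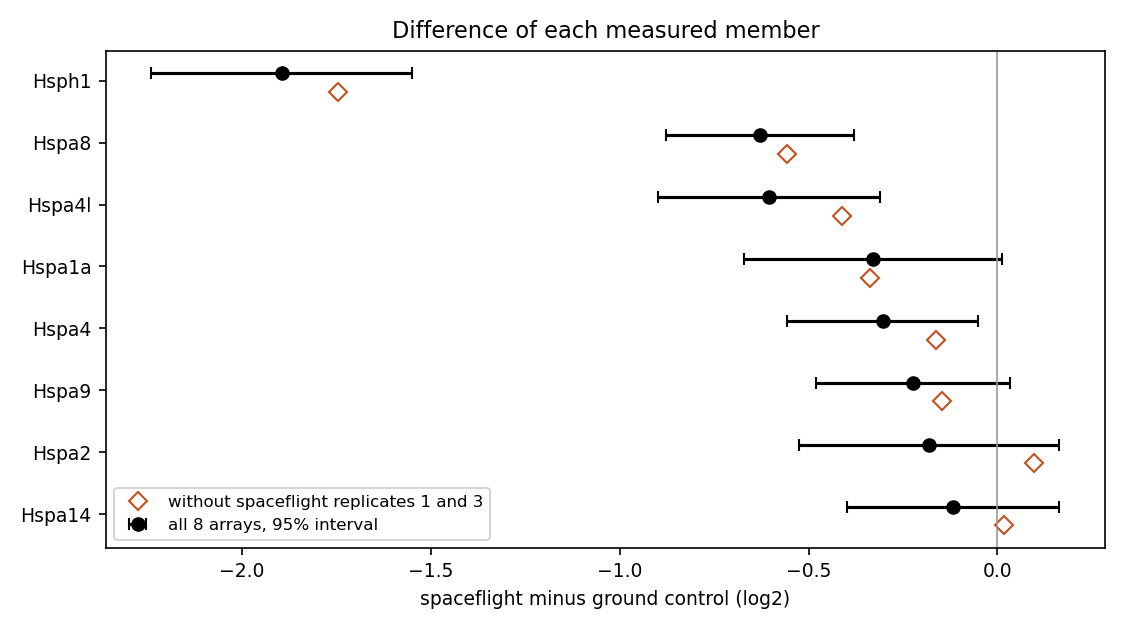
Difference between spaceflight and ground control (log2) for each measured member, with its 95% interval from limma on all 8 arrays (black) and the value without spaceflight replicates 1 and 3 (open diamonds). Hsph1 stays at -1.74 without these arrays, and Hspa2 and Hspa14 come to lie at 0.096 and 0.016.

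Spaceflight replicates 1 and 3 differed from the other arrays in their overall distribution. Their values had an interquartile range of 2.43, against 2.68 to 2.95 on the other 6 arrays, and 1 of these 2 was the lowest array for 7 of the 8 members. Genes as bright as Hsph1, Hspa4 and Hspa4l (log2 means from 8 to 9) had a median difference of -0.13 with all arrays and 0.011 without these 2. Without them Hsph1 was still the 1 member called lower, at -1.74 (limma adjusted p = 0.00478; 0.0401% of all genes were), and Hspa8 differed by -0.56 (0.141) and Hspa1a by -0.34 (0.764). The 6 constitutive members then averaged -0.19, the median over the 8 members was -0.25, and 6 of the 8 means were lower in spaceflight, as were 53.4% of those of all genes.

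Among the genes of proteins that work with Hsp70, the linker Stip1 fell. Of 20 listed partners, 1 fell and 0 rose by limma's test, where 0.0652% of all genes fell and 0.015% rose. The mean was lower in spaceflight for 16 of the 20, and 6 had groups that did not overlap, all lower (4.28% of all genes). Their median difference was -0.21, with -0.16 over the 9 nucleotide exchange factors and -0.21 over the 8 J-domain proteins. Stip1, which joins Hsp70 to Hsp90, fell to 9.16 ± 0.16 in spaceflight, against 10.04 ± 0.13 in ground control (mean ± SD, n = 4 each, limma adjusted p = 0.0185). St13, which stabilises the ADP-bound state of Hsp70, differed by -0.65 ± 0.12 (limma adjusted p = 0.0828). The J-domain protein Dnaja1 differed by -0.52 ± 0.14 and the exchange factor Hspbp1 by -0.55 ± 0.16, and neither passed (limma adjusted p = 0.274 and 0.283). Without spaceflight replicates 1 and 3 the median over the partners was -0.021 and Stip1 stood at -0.81 (limma adjusted p = 0.0871).

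Among other known targets of HSF1, 15 of 17 listed genes were measured, and all 15 had a lower mean in spaceflight. Of these, 4 fell (0.0652% of all genes fell), 0 rose and 10 did not overlap between groups, all lower (4.28% of all genes), and the median difference was -0.72. These targets were listed with the earlier results in view, so the counts are no independent evidence of direction. Hsp90aa1, the inducible cytosolic Hsp90, had 10.83 ± 0.11 in spaceflight and 11.72 ± 0.13 in ground control (mean ± SD, n = 4 each, limma adjusted p = 0.0121). Fkbp4, an immunophilin that binds Hsp90 on steroid receptors, fell by 0.93 ± 0.13, and Serpinh1, the collagen chaperone of the ER, by 0.87 ± 0.12 (limma adjusted p = 0.0185 and 0.0268). Stip1, described above, is the fourth. Stip1, Dnajb1 and Bag3 are also among the listed Hsp70 partners, so the counts of these lists share genes. Dnajb1 differed by -0.46 and Bag3 by -0.18, both with overlap between the groups. With single arrays left out, Hsp90aa1 passed in 5 of 8 fits, Fkbp4 in 3, Stip1 in 1 (without spaceflight replicate 2) and Serpinh1 in 1 (without spaceflight replicate 1), with adjusted p of up to 0.0672, 0.0938, 0.101 and 0.143 otherwise. Without spaceflight replicates 1 and 3, 0 of these 15 passed limma's threshold, where 0.0401% of all genes passed as lower, and the median was -0.58. Lower in mean were then 14 of the 15, as were 53.4% of all genes.

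Of the 4 listed heat shock factors, 3 were measured and 0 passed limma's test, where 0.0652% of all genes fell and 0.015% rose. Hsf2 was at 7.14 ± 0.34 in spaceflight and 7.40 ± 0.13 in ground control, a difference of -0.27 ± 0.16 (n = 4 each, limma adjusted p = 0.520). Its 95% interval was wide, from -0.62 to 0.080. Hsf4 and Hsf5 differed by -0.053 and 0.11, and Hsf1 had no probe set of its own.

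**Figure D4:**
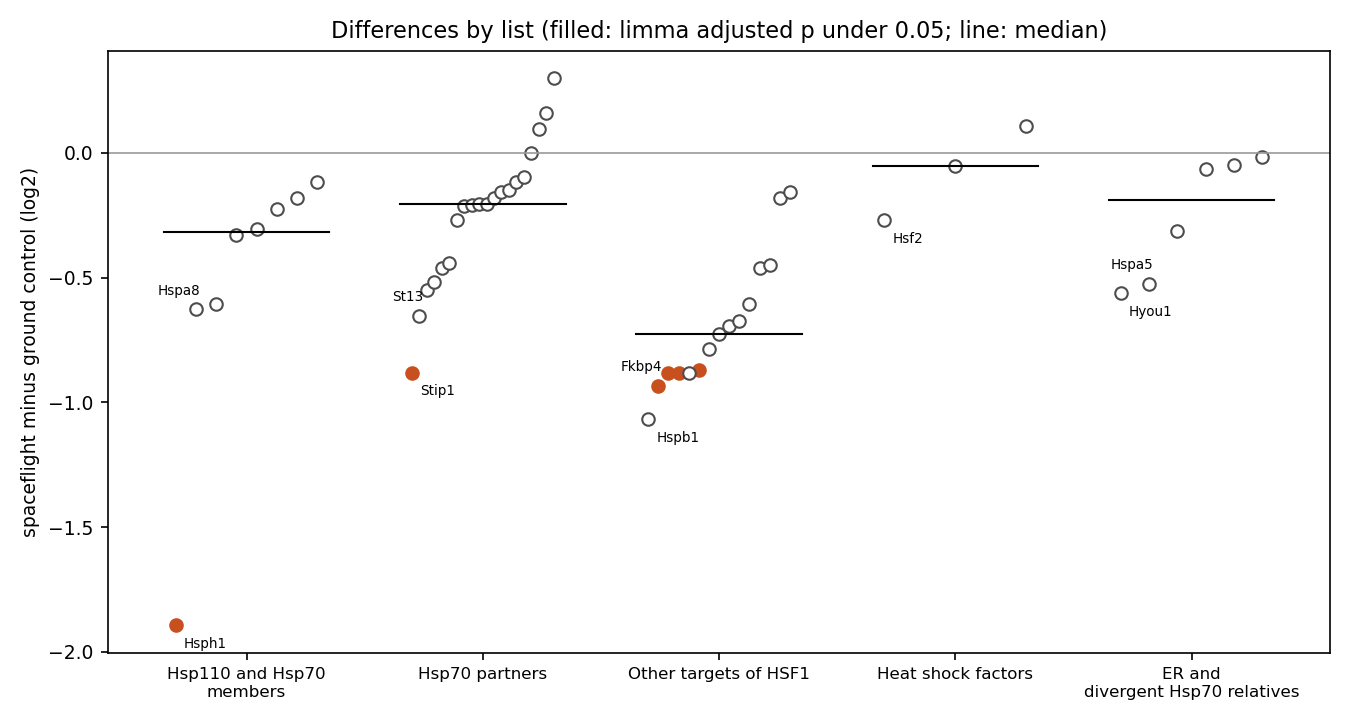
Difference between spaceflight and ground control (log2) for each gene of 5 groups, ordered within a group; filled points have a limma adjusted p under 0.05, the line is the median, and the lowest genes are named. Hsph1 at -1.89 is the lowest point, and the other targets of HSF1 have a median of -0.72 against -0.32 for the Hsp110 and Hsp70 members.

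Relatives of the family were measured for comparison, and 0 of 6 passed limma's test, where 0.0652% of all genes fell and 0.015% rose. In the ER, Hyou1, the Hsp110 protein of that compartment, ran from 7.92 to 8.33 in spaceflight and from 8.51 to 8.90 in ground control, without overlap (-0.56 ± 0.13, limma adjusted p = 0.167). Hspa5, the ER Hsp70 called BiP, ran from 9.59 to 10.21 in spaceflight and from 10.15 to 10.54 in ground control, with overlap (-0.53 ± 0.14, limma adjusted p = 0.271). Hspa13, an Hsp70-like protein of microsomes, differed by -0.31 ± 0.16. The divergent genes Hspa12a and Hspa12b and the testis gene Hspa1l, a neighbour of Hspa1a, differed by -0.064, -0.019 and -0.048. At an unadjusted p under 0.05 stood 2 of the 6, Hyou1 and Hspa5, both lower, where 7.38% of all genes were lower at that level.

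Over the 8 arrays, the genes most like Hsph1 by Pearson's r, out of 10793 genes with a log2 mean of at least 6, were Cxcl10 (r = 0.984), Hsp90aa1 (r = 0.981), Mmaa (r = 0.980), Hspa8 (r = 0.978) and Neto2 (r = 0.972). Of the other ranked members, Hspa4l came at rank 20, Hspa4 at 422, Hspa9 at 667, Hspa1a at 1505 (r = 0.700) and Hspa14 at 5415. For Hspa8 the closest were Mmaa (r = 0.987), Golt1b (r = 0.983), Cacybp (r = 0.983), Kctd21 (r = 0.981) and Pik3r3 (r = 0.978), with Hsph1 at rank 6. These likenesses hold the difference between the groups, and they are descriptions over 8 arrays that share it.

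After each group's mean was subtracted, the order was another. C1galt1c1 (r = 0.990), Serpinb5, Ubxn2b, Lias and Ptgr1 were then closest to Hsph1, and Micos10 (r = 0.991), Uaca, Tom1l1, Dynll1 and Krt13 to Hspa8. Hspa8 itself then stood at rank 289 for Hsph1 (r = 0.802), Hspa9 at rank 283 (r = 0.803) and Hspa4l at rank 97 (r = 0.864). Further down came Hspa1a at rank 1717 (r = 0.608), Hspa4 at 3987 (r = 0.384) and Hspa14 at 6541 (r = 0.101). Hsph1 and Hspa8 both had their lowest value in spaceflight replicate 1.

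Most marker lists of cells in and around the lobe had lower means in spaceflight as well. In bulk tissue, fewer cells of a type and less RNA per cell cannot be told apart. Thymocyte markers averaged 10.13 to 10.39 in spaceflight and 10.37 to 10.46 in ground control, and 9 of 9 measured had a lower mean in spaceflight, 0 of them passing limma's threshold. Thymic epithelium markers averaged 7.20 to 7.44 in spaceflight and 7.82 to 7.89 in ground control, with 6 of 6 lower in mean and 0 passing. Fat cell markers ranged from 7.38 to 8.34 in spaceflight and from 8.46 to 8.92 in ground control, and airway markers from 5.01 to 8.39 in spaceflight and from 7.21 to 9.45 in ground control. Skeletal muscle markers ranged from 6.14 to 8.23 in spaceflight and from 7.51 to 8.43 in ground control. Lower in mean were 5 of 5 measured fat markers, 4 of 4 airway markers and 5 of 5 muscle markers, and 0 passed. Groups did not overlap, lower in spaceflight, for 4 of 6 thymic epithelium markers and 2 of 9 thymocyte markers. The same held for 1 of 5 fat, 0 of 4 airway and 0 of 5 muscle markers, and for 4.28% of all genes. Of all genes, 53.5% were lower in mean and only 0.0652% passed as lower, so 0 passing in short lists says little. Spaceflight replicate 1 was the lowest array of the fat, airway and muscle lists. The other flown mice had 8.24 to 8.34 for fat, 6.81 to 8.39 for airway and 7.46 to 8.23 for muscle markers. Without spaceflight replicates 1 and 3 the median difference of the airway markers was -0.14, against -0.70 with all arrays. For fat cell markers these medians were -0.48 and -0.73, and for muscle markers -0.33 and -0.42. Thymic epithelium markers had -0.36 without these 2 arrays and -0.55 with all, and thymocyte markers -0.063 and -0.15. Markers of male germ cells, where Hspa2 and Hspa4l are also known, stayed dim at 4.48 to 4.93 in spaceflight and 4.45 to 4.70 in ground control. Only 1 of these 5 was lower in mean in spaceflight, and 0 passed. In 1 the groups did not overlap, higher in spaceflight, as in 344 of all 19938 genes. The median difference of the 5 germ cell markers was 0.11 with all arrays and -0.022 without spaceflight replicates 1 and 3. The part of these cells in the chaperone values was not tested.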

How the data were processed

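The deposited table holds log2 expression values per probe set for 8 arrays. RMA, which corrects background, equalises distributions between arrays and summarises the probes of a set, and limma are named in the submitters' processing notes. Versions, build and filters are not given in the sources used here. Of 35557 probe sets, the lowest unbroken run of identifiers (6614, with no gene in the annotation) was left out, a choice made after seeing the data. Symbols were updated through Entrez identifiers with RefSeq GRCm38.p6 (21698 of 21789 single-gene probe sets matched). Spaceflight was compared with ground control in limma 3.58.1 (R 4.3.3; lmFit, eBayes, two-sided, no replicate block) over 19938 genes, adjusted by Benjamini-Hochberg and called under 0.05; probe sets that the selection did not use were read from a fit of all 28943. The procedure was tested on simulated data with independent noise of equal size on every array. That setting does not copy the narrower distributions of spaceflight replicates 1 and 3. Members, lists and tests were chosen with earlier results of these data known. Named genes are all members and relatives, and the up to 4 genes of smallest p of each other chaperone list. The 5 most like Hsph1 and Hspa8 by correlation are also named. Dnajb1 and Bag3 are named because they stand in both the partner and the HSF1 list. Hspa1b was also to be compared, but has no probe set of its own. Marker genes are given by list, with Rag1 and Ptcra chosen after their values were seen. The number of arrays limits the precision. Alternatives were other centring and normalization, array weights, variance models, filters, probe set rules, a replicate block and left-out arrays.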

Additional observations from a re-analysis of the deposited data

Results flagged for a closer look

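In 3 of 38 sets of 4 values, 1 mouse lay far from the other 3 of its group (gap to the nearest, over the whole range, above Dixon's 95% critical value), where chance gives about 1 in 20. For Hspa4, ground-control replicate 4 had 9.02, below the others at 9.17 to 9.18, and this mouse sets the narrow gap of 0.027 to the flown group. For Hspa9, spaceflight replicate 1 had 10.13, below the others at 10.44 to 10.49. For Hspa12b, a divergent relative, ground-control replicate 3 had 6.16, above the others.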

How the results depend on the processing

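Hsph1 passed in each of the 8 fits without 1 array (differences from -1.98 to -1.75, adjusted p from 0.000405 to 0.00499) and in each of 12 other alternatives (adjusted p from 0.000216 to 0.00844). The count of members called lower was 1 in all of these except with trend and robust variances, where it was 2 (Hspa8 added, adjusted p = 0.0284; over its other alternatives and left-out arrays up to 0.264). Without spaceflight replicates 1 and 3 the constitutive mean was -0.19, and Hspa2 (0.096) and Hspa14 (0.016) changed sign; those fits hold 2 of the 4 flown mice, and the cause was not tested. Leaving out single arrays gave -0.41 to -0.27 for the member median, -1.22 to -1.01 for the inducible mean, -0.40 to -0.28 for the constitutive mean and -0.85 to -0.71 for inducible minus constitutive. That last value was -0.65 with Hspa4l, and -0.66 with Hspa8, counted as inducible, and -0.61 with the shared Hspa1a and Hspa1b probe set added, an alternative chosen after seeing the data. The count over all features was 16 genes, against 25 with dim genes removed, 6 to 15 without single arrays, and, in alternatives added after seeing the data, 10 with the variance prior of all probe sets and 8 with the control run kept. The replicate number did not pair the mice (correlation of deviations from -0.30 to 0.24, none best with its own number); with a replicate block Hsph1 stayed at -1.89 (limma adjusted p = 0.00366), 1 member was called, and 20 genes were called in all. Hspa2 was removed by the filter on dim genes, and the table gives no background signal to set its level against.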
